A study of Homo sapiens with 9 samples.

Results

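Control cells sorted for CD90 were compared with control cells sorted for CD38, across all genes, in haematopoietic cells grown out of H1, a widely used human embryonic stem cell line. Each fraction had 3 libraries, so the comparison used 6 of the 9 libraries of the study. Both groups carried the control genotype. Neither the method of differentiation and sorting nor the number of cultures is stated in the sources used here, so p-values measure only the spread between these samples, which may be technical. The third group of the study, CD90+ cells with GATA2 overexpression, entered only the shared estimate of the spread.

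CD90, the product of THY1, is a small glycolipid-anchored surface protein found on human haematopoietic stem cells and also on fibroblasts, neurons and some endothelium. CD38 is an enzyme that breaks down NAD and appears on the surface of committed and activated blood cells. Human stem and early progenitor cells are commonly described as CD34+ CD38- CD90+, so the antigens mark opposite ends of early blood development. Receptors set which signals a cell can read, transcription factors set which genes it can use, and secreted factors are what it offers its neighbours.

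Gene counts summed to 42577569 to 47261093 in each CD90+ library and 42695005 to 45561088 in each CD38+ library, and 19256 to 19337 against 17083 to 17186 genes had at least 1 count. The table lists 21229 genes, of which 16232 had enough counts to be tested and 4997 did not. By the quasi-likelihood test of edgeR, adjusted by Benjamini-Hochberg, 13056 genes were called at an adjusted p under 0.05 (80.4% of those tested). A gene was therefore counted as changed only if it was called and also differed at least 2-fold, which held for 3663 genes higher (22.6%) and 2208 lower (13.6%) in CD90+ cells. Libraries of the groups did not overlap in 5813 of these 5871 genes. They were picked by the same difference, so the missing overlap is no separate support, and its share over all tested genes is not given. Genes named below as higher or lower were called and at least 2-fold different unless stated. The 3 CD90+ libraries of each lay wholly above or wholly below its 3 CD38+ libraries. Genes given beside the largest changes of a list, and the pairs whose count ratios are given, were chosen after their values were seen. The median log2 difference of all tested genes was 0.034. Scaling by library size only moved it to 0.44 and upper-quartile factors to 0.30, so small differences depend on the scaling, and counts under library size only are given in parentheses where they change which side is larger. Under that scaling 4951 of all tested genes were at least 2-fold higher and 1296 at least 2-fold lower.

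THY1 and CD38, the genes of the antigens in the labels, differed in the labelled direction. THY1 (ENSG00000154096.13, chromosome 11, 119417378 to 119424985, minus strand, GRCh38) was at 5.09, 3.83 and 4.37 CPM (counts scaled to one library size with TMM factors) in the CD90+ libraries and had 0 counts in the CD38+ libraries, and was at least 169-fold higher. That bound takes 3 counts over a group as the least that could be seen. CD38 (ENSG00000004468.12, chromosome 4, 15778275 to 15853230, plus strand) was at 4.22, 4.81 and 4.09 CPM in the CD90+ libraries and 119, 121 and 124 CPM in the CD38+ libraries, 27.7-fold lower in CD90+ cells. CD34 (ENSG00000174059.16, chromosome 1, 207880972 to 207911402, minus strand), the classical progenitor and endothelial antigen, was at 122, 123 and 123 CPM in the CD90+ libraries and 13.9, 15.2 and 16.3 CPM in the CD38+ libraries, 8.08-fold higher. In all 3 genes the groups did not overlap. PTPRC (CD45), the common leukocyte antigen, was at 129.8, 114 and 109 CPM in the CD90+ libraries and 243, 235 and 295 CPM in the CD38+ libraries, 2.19-fold lower, and SPN (CD43), a sialoglycoprotein of blood cells, was 2.43-fold lower (52.5 ± 0.542 against 128 ± 1.83 CPM, mean ± SD, n = 3, as below). Both were lower in CD90+ cells while markers of several non-blood cell types, given next, were higher. PROM1 (CD133), another stem cell antigen, was at 4.99, 6.08 and 5.76 CPM against 0 counts, at least 215-fold higher. SLAMF1 (CD150), which marks stem cells in the mouse, was 34.3-fold lower, at 1.29 ± 0.113 against 44.4 ± 2.30 CPM. CD48, a partner of the SLAM family, was 4.21-fold lower. Of 23 tested sort and progenitor antigens 4 were at least 2-fold higher and 8 at least 2-fold lower (6 and 3 when scaled by library size only). The most abundant per kilobase was CD164, a sialomucin, at 98.8 RPKM (the same scale, per kilobase of exon) in CD90+ and 116 RPKM in CD38+ cells. Its log2 difference of -0.23 became 0.18 with library size only.

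Markers of other cell types moved with the sort. Mesenchymal markers summed to 1226 to 1240.2 CPM in CD90+ and 39.1 to 42.4 CPM in CD38+ libraries, with 11 of 13 higher, none lower and POSTN at 0 counts in CD38+ cells. Epithelial and endoderm markers summed to 1122 to 1130.2 against 359 to 374 CPM (9 of 10 higher), cardiac and smooth muscle markers to 154 to 156 against 13.5 to 15.05 CPM (8 of 9 higher) and neural markers to 35.05 to 39.5 against 2.98 to 3.34 CPM (6 of 8 higher, SOX2 at 0 in CD38+). Endothelial markers differed less in sum, at 887 to 912 against 742 to 799 CPM (6 of 10 higher, EMCN at 0 in CD38+). In the other direction, mast cell and basophil markers summed to 181 to 186 against 2227 to 2304 CPM (6 of 9 lower, FCER1A higher) and neutrophil granule markers to 1932 to 1959.7 against 6824 to 7149.8 CPM (7 of 10 lower, AZU1 higher). The mast cell protease CMA1 had 0 counts in CD38+ cells. The part of these cell types in each result below was not tested. In sorted bulk cells, fewer cells of a type and less RNA per cell cannot be told apart.

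By class, surface receptors, secreted factors and transcription factors held more changed genes than the background on both sides, transcription factors only slightly so on the lower side. Of 419 tested surface genes 157 were at least 2-fold higher (37.5%) and 115 lower (27.4%). Of 385 secreted factors 192 were higher (49.9%) and 86 lower (22.3%). Transcription factors were at 155 higher and 67 lower of 436 (35.6% and 15.4%). Metabolic genes stood slightly under the background on the higher side and above it on the lower side, with 127 higher and 116 lower of 628 (20.2% and 18.5%). The shares by list, drawn against the shares over all tested genes, ran from 72.7% higher for WNT, Hedgehog, Notch and guidance ligands to none for the mitochondrially encoded genes. Lists with the largest lower shares were TNF superfamily ligands (41.2%), receptors for lipids, amines, purines and peptides (39.2%) and interleukins and colony-stimulating factors (36.7%). A count of members does not give the summed level, which went the other way in several lists. The counts of each list below stand against 22.6% higher and 13.6% lower over all tested genes. Those under library size only stand against 4951 higher and 1296 lower of the 16232 tested genes, so part of their shift is shared by all genes.

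**Figure D1:**
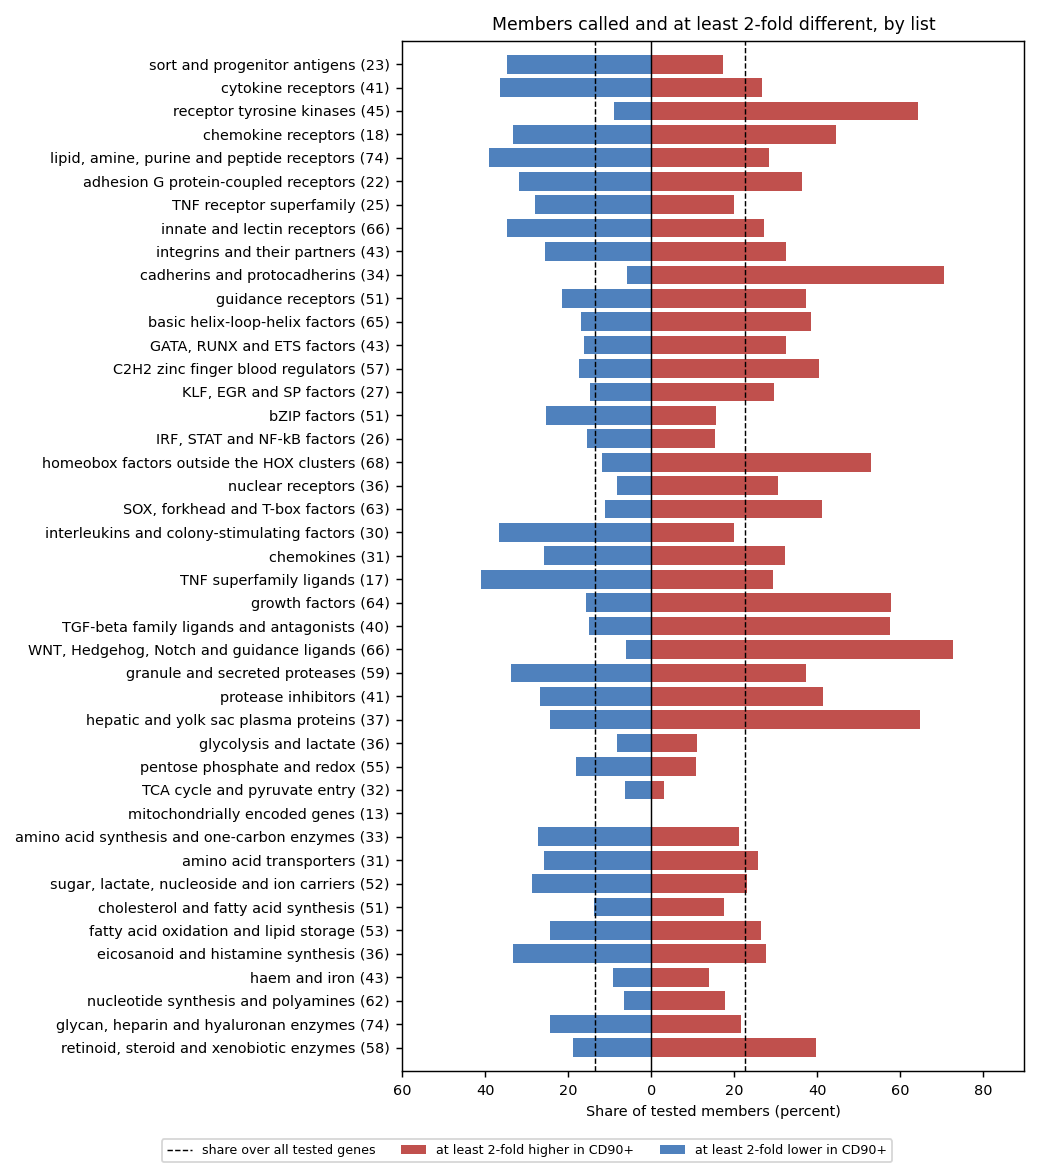
Share of each list's tested members (number in parentheses) that were called and at least 2-fold higher (red, right) or lower (blue, left) in CD90+ than in CD38+ control cells, in percent. Dashed lines mark the shares over all 16232 tested genes, 22.6% higher and 13.6% lower, and ligands of the WNT, Hedgehog, Notch and guidance families reach furthest to the right.

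Among cytokine receptors, which signal mostly through JAK and STAT proteins, CD90+ cells had less of chains of the receptors for IL-2, IL-5, IL-9, IL-18 and IL-33 and of CSF2RB, which the IL-3, IL-5 and GM-CSF receptors share, and more of the receptors of the IL-6 and LIF family. Of 41 tested, 11 were higher and 15 lower (15 and 11 with library size only). IL2RB was at 0.570, 0.544 and 0.604 CPM in the CD90+ libraries and 82.7, 87.6 and 88.1 CPM in the CD38+ libraries, 149.9-fold lower (log2 difference -7.23 ± 0.103 SE, adjusted p = 3.08e-19). IL2RA, the high-affinity chain, was 118-fold lower, at 0.684 ± 0.236 against 81.6 ± 3.47 CPM. Lymphoid markers summed to 76.6 to 83.97 against 419.6 to 427 CPM (5 of 9 lower, none higher). CSF2RB, the common beta chain, was the most abundant cytokine receptor per kilobase in CD38+ cells, at 306 RPKM, and its libraries read 62.2, 65.6 and 62.9 CPM in the CD90+ libraries and 1481, 1549 and 1561 CPM in the CD38+ libraries. IL1RL1, the receptor for IL-33 on mast cells and other type 2 cells, was 34.2-fold lower, at 6.06 ± 0.803 against 208 ± 3.75 CPM. IL9R was at 0.0982, 0.0363 and 0.141 CPM in the CD90+ libraries and 23.3, 41.4 and 27.3 CPM in the CD38+ libraries, 329.7-fold lower. IL9R, CRLF2, IL3RA and CSF2RA lie in the pseudoautosomal regions shared by the X and Y chromosomes, so their reads may be split between copies. IL3RA and CSF2RA varied widely within each group, at 19.9, 7.27 and 40.7 CPM in the CD90+ libraries and 58.6, 17.9 and 22.7 CPM in the CD38+ libraries for IL3RA, and neither was called (adjusted p = 0.328 and 0.861).

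On the higher side, LIFR, the LIF receptor, was at 21.5, 22.7 and 19.6 CPM in the CD90+ libraries and 0.372, 0.615 and 0.200 CPM in the CD38+ libraries, 53.8-fold higher (log2 difference 5.75 ± 0.216 SE, adjusted p = 1.28e-13). Its shared signalling partner IL6ST (gp130) was 2.30-fold higher, at 126 ± 2.54 against 54.8 ± 2.76 CPM, and OSMR, IL6R and CNTFR of the same family were also higher. CRLF2, a chain of the TSLP receptor, was 7.48-fold higher and IL21R 6.89-fold higher, at 5.40 ± 1.08 and 6.62 ± 0.139 CPM in CD90+ cells. Per kilobase the highest cytokine receptor of CD90+ cells was IFNGR1, the interferon gamma receptor, at 129 RPKM against 75.6 RPKM. It differed 1.70-fold and so did not reach the 2-fold limit.

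Receptor tyrosine kinases leaned the other way, with 29 of 45 higher and 4 lower in CD90+ cells and a median log2 difference of 1.97. A group had 0 counts in 3 of the 45, which fixed their direction in advance. TEK, the angiopoietin receptor of endothelial and stem cells, was at 25.7, 24.6 and 27.7 CPM in the CD90+ libraries and 0.558, 0.749 and 0.401 CPM in the CD38+ libraries, 45.7-fold higher (log2 difference 5.51 ± 0.132 SE, adjusted p = 2.83e-16). Its ligand gene ANGPT1 was also higher, 12.2-fold, at 71.04 ± 1.21 against 5.85 ± 0.730 CPM. ROR1, a receptor for WNT5A, was 33.2-fold higher and PDGFRA, a mesenchymal growth factor receptor, 29.5-fold higher, at 7.63 ± 0.668 and 5.73 ± 1.09 CPM. FLT3, the receptor of early lymphoid and myeloid progenitors, was at 3.10, 2.88 and 2.92 CPM in CD90+ libraries against 1 count over the CD38+ group, a ratio of 341 (95% Clopper-Pearson counting interval 60.9 to 13501). KIT, the stem cell factor receptor, was nearly level, at 49.02, 49.5 and 51.5 CPM in the CD90+ libraries and 40.9, 42.9 and 42.1 CPM in the CD38+ libraries, 1.19-fold higher, which was called but short of 2-fold. LTK, of the same family as ALK, was 8.17-fold lower, at 0.729 ± 0.308 against 5.96 ± 0.399 CPM. CSF1R, the macrophage growth factor receptor, had the highest level per kilobase of this family in both fractions, at 207 RPKM in CD90+ and 80.8 RPKM in CD38+ cells, and was 2.57-fold higher in CD90+ cells. Of 9 tested macrophage markers, CSF1R among them, 5 were higher and 2 lower (CD14 and VSIG4). The whole list summed to 1696 to 1729 CPM in CD90+ and 1237 to 1304 CPM in CD38+ libraries, but without CSF1R the order turned, at 642 to 656 against 835 to 877 CPM. The higher kinases include PDGFRA and PDGFRB, which are themselves on the mesenchymal list that rose with the sort.

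Of 18 tested chemokine receptors 8 were higher in CD90+ cells (among them CCR2, CCR3, CCR4, CCR7, CMKLR1, ACKR1 and ACKR3) and 6 lower (CXCR1, CXCR2, CXCR3, CXCR4, CXCR5 and ACKR2). The ACKR proteins take up chemokines without the usual signal. CCR2, the receptor for CCL2 on monocytes, was at 20.01, 21.5 and 20.98 CPM in the CD90+ libraries and 2.95, 4.33 and 4.48 CPM in the CD38+ libraries, 5.30-fold higher. CXCR2, a neutrophil receptor for CXCL8, was at 0.491, 0.599 and 0.282 CPM in the CD90+ libraries and 7.18, 6.66 and 7.19 CPM in the CD38+ libraries, 15.1-fold lower. The ratio of CCR2 to CXCR2 counts, which no scaling alters, was 40.8, 35.9 and 74.4 in CD90+ and 0.411, 0.651 and 0.624 in CD38+ libraries. CXCR4, which holds blood cells in the marrow through CXCL12, was at 65.7, 60.2 and 62.7 CPM in the CD90+ libraries and 244, 246 and 248 CPM in the CD38+ libraries, 3.92-fold lower (log2 difference -1.97 ± 0.0341 SE, adjusted p = 4.01e-18), and was the highest chemokine receptor per kilobase in CD38+ cells (111 RPKM). CX3CR1, the fractalkine receptor, led in CD90+ cells at 28.5 RPKM, 1.61-fold above its CD38+ level and so short of 2-fold.

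The other G protein-coupled receptors included many inflammatory sensors that were lower in CD90+ cells. Of 74 receptors for lipids, amines, purines and peptides, 21 were higher and 29 lower (26 and 23 with library size only). CNR2, the cannabinoid receptor of immune cells, was at 2.83, 2.32 and 2.03 CPM in the CD90+ libraries and 137, 136 and 135 CPM in the CD38+ libraries, 56.7-fold lower. FPR2, a receptor for formyl peptides, was 18.8-fold lower, and the complement receptor C3AR1 5.58-fold lower, from 631 ± 8.43 to 113 ± 1.63 CPM. PTGDR2 (CRTH2), the prostaglandin D2 receptor of basophils and eosinophils, was 9.48-fold lower and the histamine receptor HRH4 10.1-fold lower. All 3 hydroxycarboxylic acid receptors, HCAR1, HCAR2 and HCAR3, were lower, though HCAR2 and HCAR3 are near-identical copies and may share reads. On the higher side APLNR, the apelin receptor of mesoderm and early endothelium, was at 10.3, 9.32 and 10.8 CPM in the CD90+ libraries and 0.0532, 0.0535 and 0.0501 CPM in the CD38+ libraries, 184-fold higher (log2 difference 7.53 ± 0.258 SE, adjusted p = 3.63e-14). GALR2 and LPAR3, receptors for galanin and lysophosphatidic acid, were 26.05-fold and 23.9-fold higher, and without CD38+ replicate 2 the log2 difference of GALR2 was 5.32 in place of 4.70. GPR183, which guides cells along oxysterols, had the highest level per kilobase in CD90+ cells (263 RPKM against 150.4 RPKM) and differed 1.75-fold.

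Adhesion receptors of this superfamily showed the same kind of split, with 8 of 22 higher and 7 lower. ADGRG3 (GPR97), found on granulocytes and mast cells, was at 19.4, 18.2 and 19.7 CPM in the CD90+ libraries and 788, 807 and 818 CPM in the CD38+ libraries, 42.1-fold lower, and the groups were far apart. ADGRE3 and ADGRE1, of the EGF-module family of myeloid cells, were 26.2-fold and 10.1-fold lower. ADGRL2 (latrophilin 2) was at 12.5, 13.8 and 11.9 CPM against 3 counts over the CD38+ group, a ratio of 489 (95% Clopper-Pearson counting interval 167 to 2376). Its fitted log2 difference of 8.78 was 9.62 without CD38+ replicate 3. ADGRL4 and ADGRF5, both endothelial receptors, were also higher.

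In the TNF receptor superfamily 5 of 25 were higher and 7 lower (5 and 3 with library size only). The costimulatory receptors TNFRSF18 (GITR) and TNFRSF4 (OX40) were 20.2-fold and 5.17-fold lower, at 2.53 ± 0.310 and 11.6 ± 0.714 CPM against 51.4 ± 1.44 and 59.9 ± 0.431 CPM. The death receptor FAS was 2.84-fold lower, and TNFRSF10A and TNFRSF10B, the TRAIL receptors, were lower as well. TNFRSF13C, the BAFF receptor, was 5.84-fold higher. TNFRSF1B, a TNF receptor, was the highest per kilobase in CD90+ cells (104 RPKM) and TNFRSF12A, the TWEAK receptor, in CD38+ cells (105 RPKM).

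Among innate and lectin receptors, CD90+ cells had more TLR10, TIMD4 and STAB2 and less of several Fc, Siglec and CD300 receptors. Of 66 tested, 18 were higher and 23 lower (20 and 20 with library size only). TLR10, a Toll-like receptor with no settled ligand, was at 28.3, 26.7 and 28.5 CPM in the CD90+ libraries and 0.133, 0.214 and 0.100 CPM in the CD38+ libraries, 185-fold higher. TIMD4, which binds phosphatidylserine on dying cells, was 53.4-fold higher (105 ± 2.05 against 1.96 ± 0.196 CPM), and the hyaluronan scavenger receptor STAB2 was 129.6-fold higher, a log2 difference of 7.02 that was 8.31 without CD38+ replicate 3. SIGLEC6, a sialic acid receptor of mast cells and trophoblast, was at 0.766, 1.11 and 0.725 CPM in the CD90+ libraries and 53.1, 55.5 and 55.4 CPM in the CD38+ libraries, 62.5-fold lower. FCGR2B, the inhibitory IgG receptor, was 45.8-fold lower, though it shares long stretches with its neighbour FCGR2C. CD300LF was 25.6-fold lower and the lipopolysaccharide co-receptor CD14 11.6-fold lower, at 29.6 ± 1.59 against 344 ± 11.3 CPM. FCER1G, the gamma chain shared by Fc receptors, was the most abundant of the list per kilobase in both fractions (330.1 RPKM and 954 RPKM), and was 2.89-fold lower. Macrophage markers as a list did not move one way, with 5 of 9 higher (C1QA 15.8-fold) and 2 lower (CD14 and VSIG4).

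Integrin chains of myeloid cells were lower, and P-selectin and the platelet integrin beta chain higher, in CD90+ cells. Of 43 integrins and partners, 14 were higher and 11 lower. SELP (P-selectin), stored in platelets and endothelium, was at 92.5, 91.04 and 93.3 CPM in the CD90+ libraries and 6.06, 6.50 and 4.18 CPM in the CD38+ libraries, 16.6-fold higher. ITGB3, the platelet integrin beta chain, was 13.3-fold higher. The myeloid integrin chains ITGAM and ITGAX were 6.75-fold and 4.60-fold lower, ITGAM falling from 206 ± 6.74 to 30.4 ± 1.57 CPM. SELPLG, the ligand of P-selectin, was the highest of the list per kilobase in both fractions and was 3.17-fold lower in CD90+ cells, the opposite of its partner.

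Cadherins, which join cells of the same kind, had 24 of 34 tested members higher and 2 lower, with a median log2 difference of 2.68. Of the 34, 8 had 0 counts in the CD38+ libraries and could only come out higher. The summed level differed less, at 228 to 242 CPM in CD90+ and 166 to 176 CPM in CD38+ libraries. CDH11, a mesenchymal cadherin, was at 15.2, 14.5 and 17.6 CPM in the CD90+ libraries and 0, 0.0802 and 0.100 CPM in the CD38+ libraries, 247-fold higher. The kidney and neural cadherin CDH6 and the epithelial cadherin CDH1 were 187-fold and 131-fold higher, at 13.6 ± 0.700 and 17.5 ± 0.376 CPM. The log2 difference of CDH6 was 7.55, 9.75 without CD38+ replicate 2 and 6.95 without CD38+ replicate 3. Mesenchymal and epithelial markers rose in the same libraries, and CDH1 is one of the latter. The desmosomal cadherin DSC2 went the other way, at 32.4, 35.2 and 36.4 CPM in the CD90+ libraries and 84.7, 76.2 and 76.6 CPM in the CD38+ libraries, 2.28-fold lower.

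Receptors of guidance, WNT, Notch and TGF-beta ligands were mixed, with 19 of 51 higher and 11 lower. Their summed level was lower in CD90+ cells, at 1090 to 1104 CPM against 1757 to 1814 CPM in CD38+ libraries. The WNT receptor FZD2 was 6.11-fold higher, LGR4, a receptor for R-spondins, 5.34-fold higher, and the semaphorin co-receptor NRP2 4.19-fold higher (31.5 ± 0.843 against 7.54 ± 0.547 CPM). The semaphorin receptor PLXNA1 was at 21.02, 20.9 and 22.7 CPM in the CD90+ libraries and 125, 133 and 134 CPM in the CD38+ libraries, 6.07-fold lower, and PLXNC1, the receptor for semaphorin 7A, 5.60-fold lower. NOTCH1 was at 30.4, 31.3 and 31.5 CPM in the CD90+ libraries and 119, 120.1 and 124 CPM in the CD38+ libraries, 3.89-fold lower. TGFBR2 was 3.14-fold lower and was the highest of the list per kilobase in CD38+ cells (56.04 RPKM). Endoglin (ENG) led in CD90+ cells at 28.5 RPKM and was 1.40-fold lower there, a call that was lost with library size only (adjusted p = 0.0617).

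**Figure D2:**
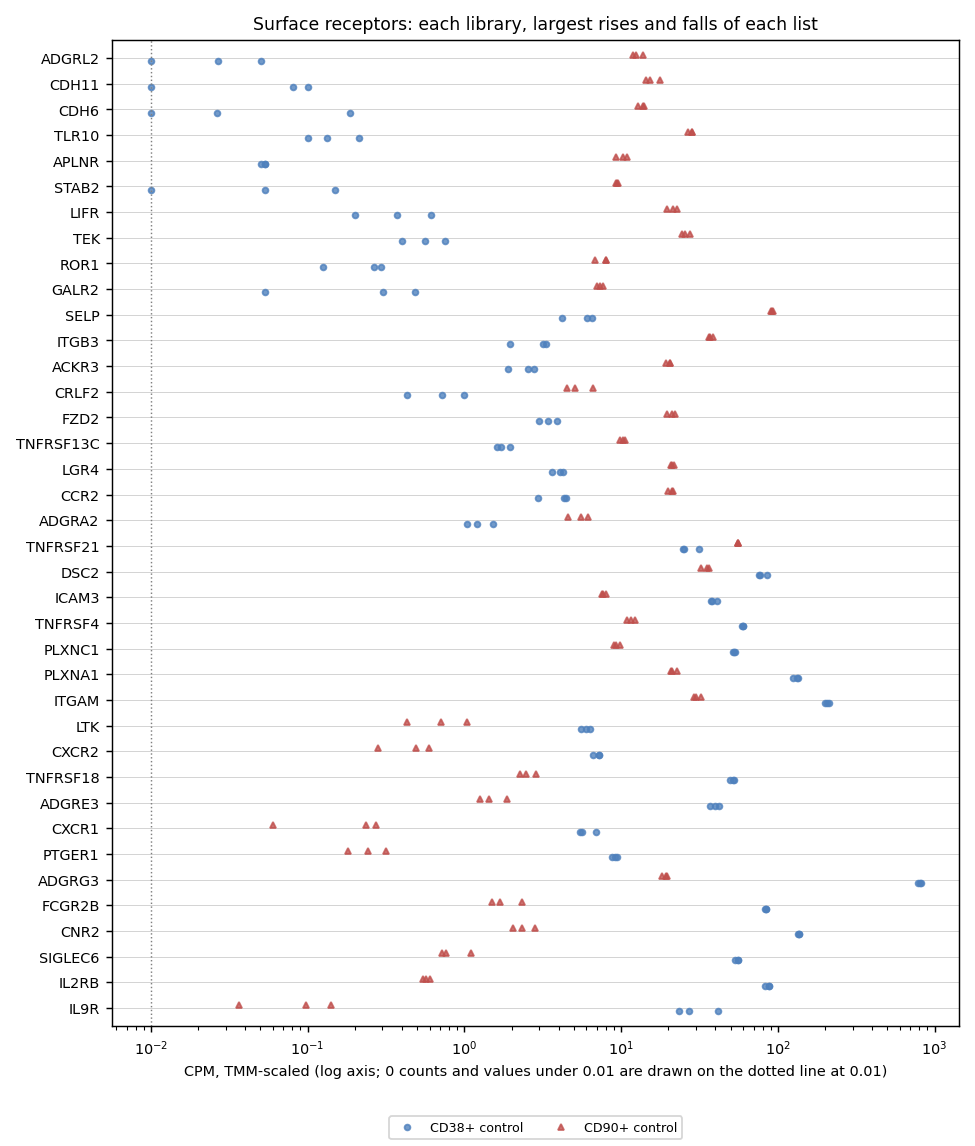
Level in each library of the genes with the largest rises and falls in each surface receptor list (up to 2 a direction, of the genes reported), in CPM on a log axis, with CD38+ control libraries as blue circles and CD90+ control libraries as red triangles; libraries at 0 or under 0.01 CPM sit on the dotted line. Only genes whose groups do not overlap were drawn, and they run from ADGRL2 at the top (higher in CD90+) to IL9R at the bottom (lower).

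Transcription factors higher in CD90+ cells included HAND1, SOX18, ERG, HLF and MEIS1, and those lower included GATA2, CEBPE, ATF5, EPAS1 and VDR. Among basic helix-loop-helix factors, which pair to bind E-box DNA, 25 of 65 were higher and 11 lower. A group had 0 counts in 4 of the 65, which fixed their direction in advance. HAND1, a factor of the heart and extraembryonic mesoderm, was at 23.7, 22.3 and 22.8 CPM in the CD90+ libraries and 0.0266, 0.160 and 0.0501 CPM in the CD38+ libraries, 282-fold higher (log2 difference 8.14 ± 0.200 SE, adjusted p = 3.97e-16). HEY2, a Notch target of arteries and heart, was 15.7-fold higher, beside HEYL, HES1 and HES4. The hypoxia factors differed in direction, as HIF3A was 68.3-fold higher (11.5 ± 0.400 against 0.162 ± 0.126 CPM), and EPAS1 (HIF-2 alpha) was at 14.004, 12.6 and 14.8 CPM in the CD90+ libraries and 103, 106 and 104 CPM in the CD38+ libraries, 7.56-fold lower (log2 difference -2.92 ± 0.0563 SE, adjusted p = 1.64e-17). Without CD38+ replicate 2 the log2 difference of HAND1 was 9.11, and without CD38+ replicate 3 that of HIF3A was 6.90 in place of 6.09. MYCN was 9.98-fold higher (78.1 ± 0.742 against 7.82 ± 0.342 CPM). MLXIPL, a carbohydrate-sensing factor, was 12.2-fold lower. ID2, an inhibitor of the family, had the highest level per kilobase in both fractions, with a log2 difference of -0.23 that became 0.18 with library size only and 0.037 with upper-quartile factors.

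GATA, RUNX and ETS factors and their cofactors, central to blood formation, had 14 of 43 higher and 7 lower. Their summed level went the other way, at 1938 to 1978 CPM in CD90+ and 2943 to 3012.5 CPM in CD38+ libraries. GATA2 (ENSG00000179348.11, chromosome 3, 128479427 to 128493185, minus strand), needed for stem cells and mast cells, was at 86.6, 89.5 and 85.9 CPM in the CD90+ libraries and 551, 576 and 581 CPM in the CD38+ libraries, 6.52-fold lower (log2 difference -2.70 ± 0.0315 SE, adjusted p = 2.65e-20). GATA1, the erythroid, megakaryocytic and mast cell factor, was also lower, 2.81-fold, at 66.6 ± 3.27 against 188 ± 8.02 CPM, although 8 of 9 erythroid markers and 7 of 9 megakaryocyte markers were higher in the same libraries. RUNX2 and ETS1 were 7.97-fold and 4.90-fold lower. ERG, a stem cell and endothelial ETS factor, was 8.43-fold higher (29.05 ± 1.11 against 3.44 ± 0.196 CPM), and LMO2 and TAL1 of the early blood complex were 2.20-fold and 2.20-fold higher. RUNX1T1, ELF3 and LDB2 were 18.2-fold, 28.3-fold and 14.02-fold higher, all from under 1 CPM. SPI1 (PU.1) led both fractions per kilobase (87.6 RPKM and 143 RPKM).

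Among C2H2 zinc finger regulators 23 of 57 were higher and 10 lower. SNAI2, a factor of mesenchymal transition, was 61.3-fold higher, BCL6B, expressed in endothelium, 8.93-fold higher and MECOM, a stem cell factor, 4.79-fold higher, at 10.6 ± 0.201 against 2.23 ± 0.440 CPM. The log2 difference of SNAI2 was 5.94, 6.52 without CD38+ replicate 2 and 5.33 without CD38+ replicate 3. IKZF2 (Helios) was 5.33-fold lower and OSR2 4.12-fold lower. Of 27 KLF, EGR and SP factors 8 were higher and 4 lower (29.6% and 14.8%). EGR1 was at 605, 607 and 601 CPM in the CD90+ libraries and 165, 165 and 166 CPM in the CD38+ libraries, 3.65-fold higher. KLF13 was 4.40-fold lower, but its CD38+ libraries spread over 3.30, 8.93 and 8.21 CPM.

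By number of members, basic leucine zipper factors were more often lower, with 8 of 51 higher and 13 lower (10 and 6 with library size only). Their summed level went the other way, at 10888 to 10895 CPM in CD90+ and 8336 to 8520 CPM in CD38+ libraries. FOS, the top gene of the list per kilobase in CD90+ cells (1441 RPKM), was at 4666 ± 36.2 against 413 ± 8.56 CPM. CREB3L3, a membrane-bound stress factor known from liver, was at 1.51, 1.16 and 1.41 CPM in the CD90+ libraries and 59.4, 67.99 and 69.7 CPM in the CD38+ libraries, 48.3-fold lower. ATF5, a factor of the amino acid and mitochondrial stress responses, was at 11.9, 12.4 and 12 CPM in the CD90+ libraries and 122, 129 and 121 CPM in the CD38+ libraries, 10.3-fold lower. CEBPE, which drives late granulocyte maturation, was 6.52-fold lower and XBP1 was also lower. Higher were FOS, 11.3-fold, and the PAR-domain clock-output factors DBP, TEF and HLF, all 3 of the family, at 4.85-fold, 4.11-fold and 7.96-fold. HLF, a marker of human stem cells, was at 2.14, 2.72 and 3.30 CPM in the CD90+ libraries and 0.319, 0.348 and 0.350 CPM in the CD38+ libraries. ATF4, the upstream factor of the amino acid response, had the highest level per kilobase in CD38+ cells (445 RPKM) and differed 1.24-fold, a log2 value of -0.31 that became 0.10 with library size only.

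Of 26 IRF, STAT and NF-kB factors 4 were higher and 4 lower, 15.4% each, against 22.6% and 13.6% of all tested genes (7 and 3 genes with library size only). The relatives IRF8 and IRF4 differed in opposite directions. IRF8, a monocyte and dendritic cell factor, was at 299, 297 and 291 CPM in the CD90+ libraries and 108, 109.6 and 114 CPM in the CD38+ libraries, 2.67-fold higher (log2 difference 1.42 ± 0.0326 SE, adjusted p = 1.61e-16), and IRF4 at 10.7, 10.96 and 11.1 CPM in the CD90+ libraries and 39.2, 37.1 and 36.03 CPM in the CD38+ libraries, 3.44-fold lower. Their count ratio was 28.03, 27.1 and 26.3 in CD90+ and 2.77, 2.95 and 3.15 in CD38+ libraries, with no overlap. NFKB1 was 2.35-fold higher, and NFATC3 and STAT4 were 4.01-fold and 3.33-fold lower.

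Homeobox factors outside the HOX clusters, which pattern embryonic tissues, had 36 of 68 tested members higher and 8 lower. Of the 68, 8 had 0 counts in the CD38+ libraries and could only come out higher. MEIS1, a cofactor of HOX proteins needed in stem cells and megakaryocytes, was at 135, 128 and 129.6 CPM in the CD90+ libraries and 15.9, 15.8 and 15.2 CPM in the CD38+ libraries, 8.37-fold higher. Its relative MEIS3 was at 6.66, 6.40 and 6.02 CPM in the CD90+ libraries and 31.8, 33.8 and 34.6 CPM in the CD38+ libraries, 5.25-fold lower, and the count ratio of MEIS1 to MEIS3 was 20.3, 20.01 and 21.5 in CD90+ against 0.501, 0.466 and 0.441 in CD38+ libraries. PITX1, a hindlimb factor, was 32.7-fold higher and HOPX, found in stem cells and heart, 12.4-fold higher. HHEX led both fractions per kilobase, at 64.2 RPKM and 35.4 RPKM. Of 36 nuclear receptors 11 were higher and 3 lower. The vitamin D receptor VDR was at 9.84, 8.65 and 8.86 CPM in the CD90+ libraries and 80.8, 83.2 and 89.4 CPM in the CD38+ libraries, 9.27-fold lower (log2 difference -3.21 ± 0.115 SE, adjusted p = 6.19e-14), and the retinoic acid receptor RARG 4.16-fold lower, whereas the venous factor NR2F2 was 5.96-fold higher.

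Of SOX, forkhead and T-box factors 26 of 63 were higher and 7 lower. In 9 of the 63 a group had 0 counts, which fixed the direction in advance. SOX2, a pluripotency and neural factor, was at 6.17, 5.50 and 6.77 CPM against 0 counts, at least 235-fold higher. All 6 tested pluripotency markers, SOX2 among them, were higher, at a summed 119.6 to 123 against 23.3 to 25.9 CPM (113 to 117 CPM in CD90+ libraries without SOX2). POU5F1, on the same list, had 0 counts in the CD38+ libraries and too few counts to be tested. SOX18, a vascular factor, was at 10.1, 10.1 and 10.3 CPM in the CD90+ libraries and 0.0532, 0.241 and 0.100 CPM in the CD38+ libraries, 76.4-fold higher. Its log2 difference was 6.25, and 6.99 without CD38+ replicate 2. TEAD1, the DNA-binding partner of YAP, was 38.5-fold higher, and so were the YAP and TEAD target genes CTGF and CYR61 described below. SOX4 was 3.51-fold higher and led the list per kilobase in CD90+ cells (23.7 RPKM). FOXF1 and FOXA1 were 6.31-fold and 2.35-fold lower, and FOXO3, a stress-responsive factor of quiescent cells, was at 68.5, 69.9 and 68.3 CPM in the CD90+ libraries and 158, 159 and 157 CPM in the CD38+ libraries, 2.29-fold lower.

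**Figure D3:**
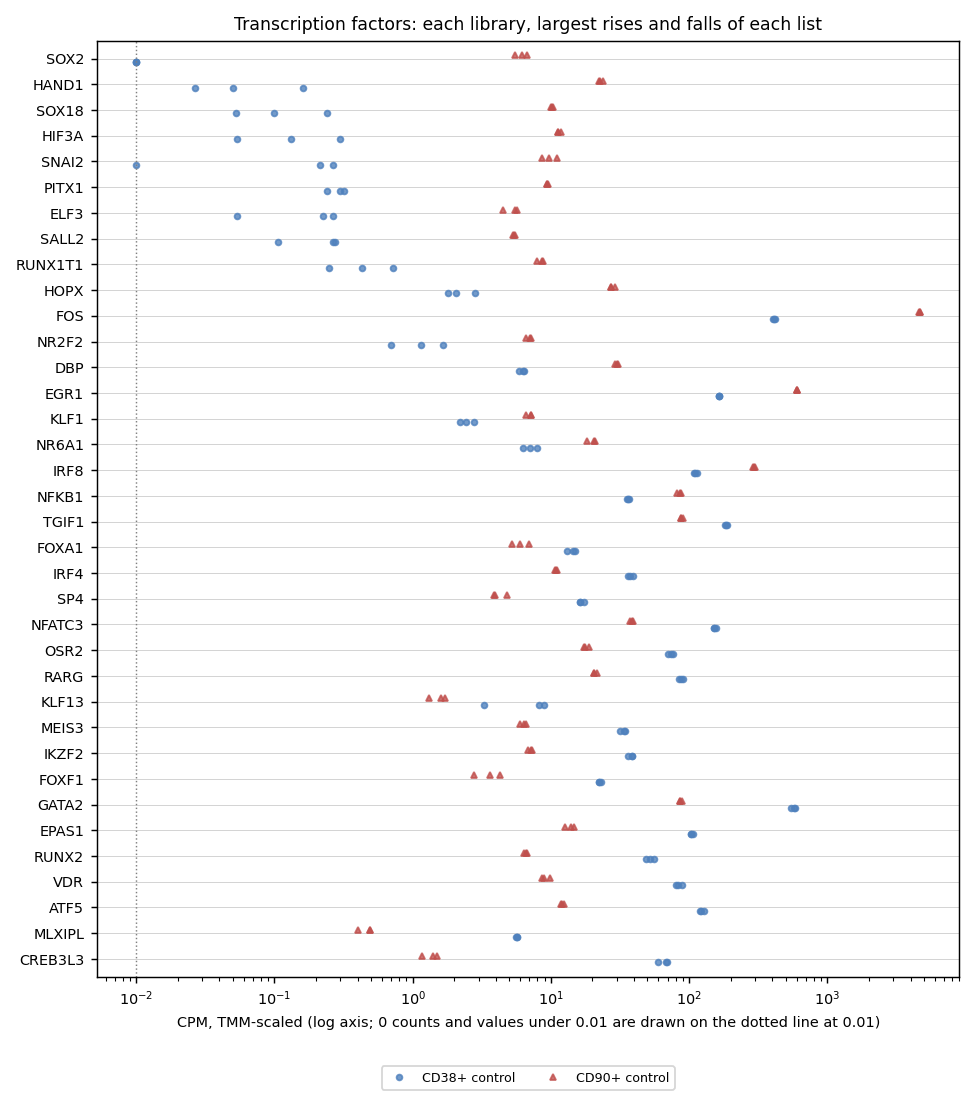
Level in each library of the transcription factor genes with the largest rises and falls in each list (up to 2 a direction, of the genes reported), in CPM on a log axis, CD38+ control libraries as blue circles and CD90+ control libraries as red triangles; libraries at 0 or under 0.01 CPM sit on the dotted line. SOX2 and HAND1 stand at the top (higher in CD90+) and CREB3L3 at the bottom (lower), and only genes whose groups do not overlap were drawn.

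By number of members, growth factors, TGF-beta family members and WNT-type ligands were mostly higher in CD90+ cells, and interleukins more often lower. Of 30 interleukins and colony-stimulating factors 6 were higher and 11 lower. IL3, a growth factor of mast cells and basophils, was at 0.0982, 0.0363 and 0.101 CPM in the CD90+ libraries and 15.1, 13.6 and 14.8 CPM in the CD38+ libraries, 181-fold lower, beside the fall of its receptor chain CSF2RB. IL1A was 20.5-fold lower and IL32 13.03-fold lower, and IL13, IL15, LIF, CSF2 and CSF1 were lower too. IL11 and CTF1, both ligands of gp130 receptors, were 3.41-fold and 3.22-fold higher, at 5.79 ± 0.590 and 5.92 ± 0.370 CPM. IL1B was the most abundant of the list per kilobase in both fractions (32.4 RPKM and 59.5 RPKM).

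Chemokines gave 10 higher and 8 lower of 31. CCL2, which draws monocytes through CCR2, was at 53.4, 49.9 and 48.9 CPM in the CD90+ libraries and 1143, 1066 and 966 CPM in the CD38+ libraries, 20.9-fold lower, so ligand and receptor differed in opposite directions. CCL13 was at 13.7, 15.3 and 13.6 CPM in CD38+ libraries against 1 count over the CD90+ group, a ratio of 2212 (95% Clopper-Pearson counting interval 396 to 87418), CD38+ over CD90+. That count was in CD90+ replicate 1. PF4, the platelet chemokine, was at 1078, 1076 and 1075 CPM in the CD90+ libraries and 74.5, 67.03 and 65.99 CPM in the CD38+ libraries, 15.6-fold higher (log2 difference 3.96 ± 0.0372 SE, adjusted p = 2.28e-21) and the most abundant chemokine per kilobase in CD90+ cells (1782 RPKM). Megakaryocyte markers summed, without PF4, to 1521 to 1557 CPM in CD90+ and 718 to 739 CPM in CD38+ libraries (7 of 9 higher with PF4 counted). CCL22 and CXCL14 were 13.3-fold and 12.6-fold higher. CCL5 was 12.5-fold lower (adjusted p = 0.00100) with very uneven libraries, at 0.177, 0.218 and 3.14 CPM in the CD90+ libraries and 33.4, 5.16 and 5.26 CPM in the CD38+ libraries. Its log2 difference of -3.65 was -2.16 without CD38+ replicate 1 and -6.18 without CD90+ replicate 3. Of 17 TNF superfamily ligands 5 were higher and 7 lower (6 and 4 with library size only). TNFSF14 (LIGHT) was 13.8-fold lower and the death ligand TNFSF10 (TRAIL) 5.50-fold lower (38.9 ± 1.06 against 214 ± 4.15 CPM), whereas TNFSF13B (BAFF) was 2.35-fold higher, as was its receptor TNFRSF13C.

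Of 64 growth factors 37 were higher and 10 lower, with a median log2 difference of 1.73. Of the 64, 10 had 0 counts in the CD38+ libraries and could only come out higher. The list summed to 1851 to 1865 CPM in CD90+ and 928 to 958 CPM in CD38+ libraries. IGF2, the fetal insulin-like growth factor, was at 128, 126 and 130.3 CPM in the CD90+ libraries and 1.20, 1.44 and 1.23 CPM in the CD38+ libraries, 99.1-fold higher (log2 difference 6.63 ± 0.0681 SE, adjusted p = 5.42e-21). Pleiotrophin (PTN), which maintains stem cells in the marrow, was 83.5-fold higher (22.03 ± 1.66 against 0.261 ± 0.00942 CPM), and its relative midkine (MDK) was 7.20-fold higher and the top growth factor per kilobase in CD90+ cells (147 RPKM). CTGF, a matrix protein and YAP target, was at 74.8, 75.5 and 71.8 CPM in the CD90+ libraries and 1.49, 0.936 and 1.58 CPM in the CD38+ libraries, 55.2-fold higher, and CYR61 was 45.5-fold higher. The ligands of the EGF receptor differed in direction. TGFA and EREG were 37.98-fold and 14.6-fold lower, with TGFA at 0.609, 0.689 and 0.544 CPM in the CD90+ libraries and 25.5, 21.4 and 23.6 CPM in the CD38+ libraries, and AREG and EPGN were lower, whereas EGF itself was higher. EGFR, their receptor, was 45.1-fold higher, at 1.70 ± 0.215 against 0.0344 ± 0.0298 CPM. VEGFA was 2.01-fold lower while its receptor KDR was 24.5-fold higher.

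TGF-beta family ligands and antagonists had 23 of 40 higher and 6 lower. Their summed level went the other way, at 513 to 522 CPM in CD90+ and 1252 to 1288.5 CPM in CD38+ libraries. A group had 0 counts in 3 of the 40, which fixed their direction in advance. FST (follistatin; ENSG00000134363.11, chromosome 5, 53480409 to 53487134, plus strand), which traps activin, was at 11.6, 11.97 and 13.1 CPM in the CD90+ libraries and 875, 855 and 864 CPM in the CD38+ libraries, 70.8-fold lower (log2 difference -6.15 ± 0.0374 SE, adjusted p = 1.82e-23) and the most abundant of the list per kilobase in CD38+ cells (291 RPKM). INHA, the inhibin alpha subunit and another activin antagonist, was at 0.196, 0.163 and 0.342 CPM in the CD90+ libraries and 16.2, 15.1 and 16.5 CPM in the CD38+ libraries, 67.8-fold lower. In both genes every CD90+ library was far below every CD38+ library. BMP4, the inducer of ventral mesoderm and blood, was at 18.5, 19.3 and 17.9 CPM in the CD90+ libraries and 0.665, 0.642 and 0.951 CPM in the CD38+ libraries, 24.5-fold higher, and BMP6 was 8.86-fold higher (42.5 ± 1.57 against 4.80 ± 0.183 CPM). FSTL1, a relative of follistatin, was 6.39-fold higher.

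WNT, Hedgehog, Notch and guidance ligands had 48 of 66 higher and 4 lower, and the 4 that were lower were the semaphorins SEMA4D, SEMA4F, SEMA6B and SEMA7A. Of the 66, 9 had 0 counts in the CD38+ libraries and could only come out higher. The summed level differed less, at 923 to 932 CPM in CD90+ and 785 to 795 CPM in CD38+ libraries. FRZB, a secreted WNT antagonist (ENSG00000162998.4, chromosome 2, 182833275 to 182867162, minus strand), was at 157, 158 and 161 CPM in the CD90+ libraries and 0.771, 0.668 and 0.401 CPM in the CD38+ libraries, 259-fold higher (log2 difference 8.02 ± 0.0794 SE, adjusted p = 3.56e-21). SFRP2, of the same family, was 343-fold higher (15.95 ± 0.558 against 0.0446 ± 0.0772 CPM), WNT5A 63.7-fold higher and DKK1 54.9-fold higher, so agonists and antagonists of WNT signalling rose together. The 5 counts of SFRP2 in CD38+ cells were all in replicate 2. DLL4, the arterial Notch ligand, was 13.1-fold higher, while NOTCH1, one of its receptors, was lower. DLK1 led the list per kilobase in CD90+ cells (51.6 RPKM) and was 3.70-fold higher. SEMA7A was at 4.44, 5.37 and 4.85 CPM in the CD90+ libraries and 189, 191 and 196 CPM in the CD38+ libraries, 39.1-fold lower, and its receptor PLXNC1 was lower too. SEMA6B and SEMA4D were 4.96-fold and 2.68-fold lower. The ligand rises stood beside mesenchymal markers whose summed level was 1226 to 1240.2 CPM in CD90+ and 39.1 to 42.4 CPM in CD38+ libraries.

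Of 59 granule and secreted proteases 22 were higher and 20 lower. Mast cell tryptases were lower, with TPSAB1 at 0.511, 0.671 and 0.503 CPM in the CD90+ libraries and 46.3, 44.6 and 49.5 CPM in the CD38+ libraries, 82.5-fold, TPSB2 62.9-fold and TPSD1 93.6-fold lower, though these near-identical genes may share reads. PRSS33 was 133-fold lower (0.639 ± 0.0817 against 85.1 ± 2.14 CPM) and the mast cell carboxypeptidase CPA3 15.6-fold lower. PLAT, the tissue plasminogen activator of endothelium, was at 13.3, 13.1 and 13.2 CPM in the CD90+ libraries and 0.744, 0.508 and 0.175 CPM in the CD38+ libraries, 27.9-fold higher. ADAMTS1 and carboxypeptidase E (CPE) were 8.47-fold and 13.7-fold higher. MMP9 had the top level per kilobase in CD90+ cells (48.9 RPKM), with a log2 difference of -0.25 that became 0.16 with library size only and 0.0090 with upper-quartile factors.

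Protease inhibitors had 17 of 41 higher and 11 lower. SPINK2, a small Kazal inhibitor known from human stem and progenitor cells, was at 35.5, 35.5 and 36.2 CPM in the CD90+ libraries and 0.399, 0.561 and 0.275 CPM in the CD38+ libraries, 86.7-fold higher. SERPINB2, an inhibitor of plasminogen activators, was 22.9-fold lower and cystatin F (CST7) 16.1-fold lower, so PLAT was higher where SERPINB2 was lower. TIMP1, the metalloprotease inhibitor, led both fractions per kilobase and was 4.35-fold lower, from 1349 ± 7.59 to 311 ± 5.13 CPM. Plasma proteins of liver and yolk sac had 24 of 37 higher and 9 lower, with a median log2 difference of 3.94 (3.78 with the genes at 0 counts put at their bound). A group had 0 counts in 6 of the 37, which fixed their direction in advance. The summed level of the list went the other way, at 655 to 662 CPM in CD90+ and 897 to 1023.5 CPM in CD38+ libraries. FGB, the fibrinogen beta chain, was at 54.2, 53.3 and 54.9 CPM in the CD90+ libraries and 0.106, 0.107 and 0.250 CPM in the CD38+ libraries, 339.6-fold higher, and FGG and AHSG had 2 and 3 counts over the CD38+ group. The acute-phase protein ORM1 was at 16.6, 15.4 and 16.6 CPM in the CD90+ libraries and 374, 499 and 353 CPM in the CD38+ libraries, 25.2-fold lower, though it may share reads with ORM2, and haptoglobin (HP) was 6.39-fold lower.

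**Figure D4:**
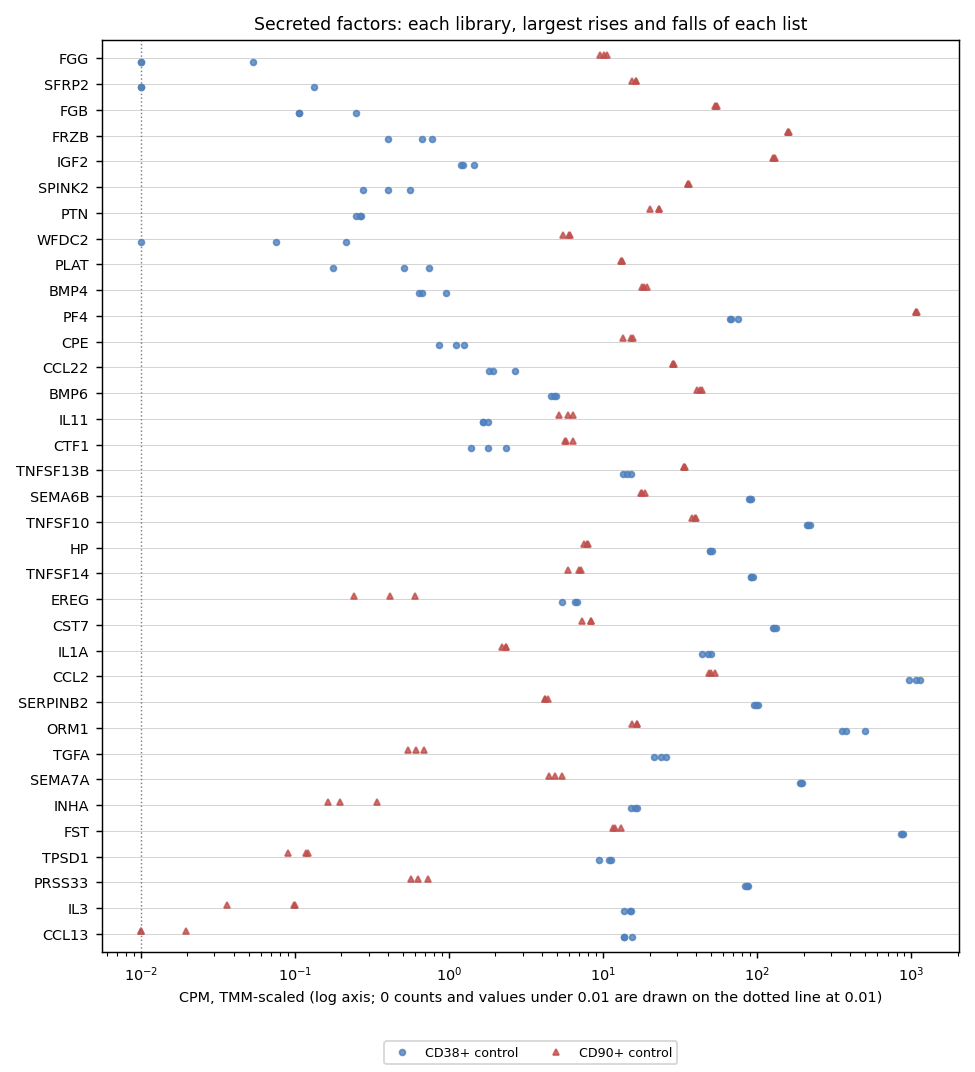
Level in each library of the secreted factor genes with the largest rises and falls in each list (up to 2 a direction, of the genes reported), in CPM on a log axis, CD38+ control libraries as blue circles and CD90+ control libraries as red triangles; libraries at 0 or under 0.01 CPM sit on the dotted line. FGG, FGB and SFRP2 stand at the top (higher in CD90+) and CCL13, IL3 and PRSS33 at the bottom (lower).

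In metabolism, several genes that make the mediators of mast cells and basophils were much lower in CD90+ cells. Of 36 genes of eicosanoid and histamine synthesis 10 were higher and 12 lower (14 and 10 with library size only). HDC, which makes histamine, was at 31.6, 30.8 and 31.7 CPM in the CD90+ libraries and 1286, 1294 and 1321 CPM in the CD38+ libraries, 41.5-fold lower (log2 difference -5.37 ± 0.0301 SE, adjusted p = 7.22e-24). ALOX5AP, which presents arachidonic acid to 5-lipoxygenase, was at 76.1, 75.7 and 74.3 CPM in the CD90+ libraries and 2858, 2836 and 2802 CPM in the CD38+ libraries, 37.6-fold lower and the top gene of the list per kilobase in CD38+ cells (1652 RPKM). HPGDS, the prostaglandin D2 synthase of mast cells, was at 17.8, 14.7 and 15.3 CPM in the CD90+ libraries and 171, 157 and 158 CPM in the CD38+ libraries, 10.2-fold lower. PTGS1 (COX-1) was 2.84-fold lower (137 ± 0.582 against 388 ± 1.75 CPM), while PTGS2 (COX-2) was 2.37-fold higher. The histamine-degrading oxidase AOC1 was 107-fold lower and the vesicle transporter SLC18A2, which loads histamine, 27.9-fold lower. Histamine methyltransferase (HNMT) was not called, at 38.2, 35.1 and 36.3 CPM in the CD90+ libraries and 37.01, 39.7 and 36.5 CPM in the CD38+ libraries (adjusted p = 0.481). The lipocalin-type synthase PTGDS was 9.79-fold higher, so the pair of prostaglandin D2 synthases differed in opposite directions. DPEP1, which cuts leukotriene D4, was at 4.97, 5.68 and 6.06 CPM against 0 counts, at least 213-fold higher. These falls stood beside those of the mast cell and basophil markers, of which HDC and SLC18A2 are members.

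Promoters of some lower genes are shown with GATA letters marked, which the GATA2 protein binds in mast cell genes. Windows of the higher members of the lists below were not counted, and any link to the lower GATA2 was not tested. Windows run from 250 bases before to 50 after the RefSeq gene start (GRCh38.p14), printed 5′ to 3′ on the gene's strand, with AGATAA or TGATAA on either strand in capitals (TTATCT and TTATCA are the other strand; matches overlap by at most 1 base). The letters occurred in 16.6% of 27305 promoter windows and in 9.86% of the 12258 windows of tested genes. They were in 3 of the 8 windows available for lower eicosanoid and histamine genes (PTGS1, HPGDS and ALOX5AP) and in 3 of 11 for lower proteases (CPA3, PRSS57 and MMP10). They were also in 3 of 12 for lower cytokine receptors (IL5RA, IL9R and IL18RAP), and in 0 of 4 for lower amino acid synthesis genes and 0 of 6 for lower amino acid transporters. HDC is given for contrast, as its window holds none.
ALOX5AP (chr13:30713235-30713534, plus strand): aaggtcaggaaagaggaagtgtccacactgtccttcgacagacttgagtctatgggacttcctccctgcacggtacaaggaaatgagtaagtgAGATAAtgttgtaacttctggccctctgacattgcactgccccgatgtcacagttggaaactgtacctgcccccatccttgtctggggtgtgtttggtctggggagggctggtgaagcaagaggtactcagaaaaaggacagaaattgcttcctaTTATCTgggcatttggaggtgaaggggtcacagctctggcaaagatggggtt
HPGDS (chr4:94342787-94343086, minus strand): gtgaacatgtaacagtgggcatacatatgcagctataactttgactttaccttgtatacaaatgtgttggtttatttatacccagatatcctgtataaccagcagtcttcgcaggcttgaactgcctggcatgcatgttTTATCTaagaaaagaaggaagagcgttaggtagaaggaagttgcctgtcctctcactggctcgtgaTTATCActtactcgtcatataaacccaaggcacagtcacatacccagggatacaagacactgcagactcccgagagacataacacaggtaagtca
PTGS1 (chr9:122370283-122370582, plus strand): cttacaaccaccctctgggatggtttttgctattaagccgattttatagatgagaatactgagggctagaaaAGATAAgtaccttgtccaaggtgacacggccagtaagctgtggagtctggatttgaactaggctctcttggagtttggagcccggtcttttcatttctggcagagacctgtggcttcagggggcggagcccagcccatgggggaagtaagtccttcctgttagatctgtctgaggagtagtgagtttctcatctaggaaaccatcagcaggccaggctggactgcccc
CPA3 (chr3:148865046-148865345, plus strand): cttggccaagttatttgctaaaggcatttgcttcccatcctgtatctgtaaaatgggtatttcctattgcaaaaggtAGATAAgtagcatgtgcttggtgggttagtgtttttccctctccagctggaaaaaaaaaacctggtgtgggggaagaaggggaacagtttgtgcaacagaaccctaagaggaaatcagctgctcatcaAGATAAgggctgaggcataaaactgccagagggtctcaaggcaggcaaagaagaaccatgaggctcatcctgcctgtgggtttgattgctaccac
HDC (chr15:50265677-50265976, minus strand): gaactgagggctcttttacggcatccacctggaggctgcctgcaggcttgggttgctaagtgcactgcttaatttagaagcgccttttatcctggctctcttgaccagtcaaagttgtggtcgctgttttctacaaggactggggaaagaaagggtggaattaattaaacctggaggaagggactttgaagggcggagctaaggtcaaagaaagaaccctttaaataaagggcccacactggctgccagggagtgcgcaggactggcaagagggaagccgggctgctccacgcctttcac
ALOX5AP, HPGDS and CPA3 each hold 2 matches and PTGS1 holds 1. A match is a description of letters and shows no binding, and an absent match says only that the letters are not in this window.

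Several genes that make or import amino acids and are known as targets of ATF4 were lower in CD90+ cells. Of 33 amino acid synthesis and one-carbon enzymes 7 were higher and 9 lower (10 and 2 with library size only). ASNS, asparagine synthetase, was at 66.2, 66.1 and 66.04 CPM in the CD90+ libraries and 238, 239.9 and 239.6 CPM in the CD38+ libraries, 3.62-fold lower (log2 difference -1.85 ± 0.0313 SE, adjusted p = 2.89e-18). PSAT1 of serine synthesis was 3.55-fold lower (161 ± 1.18 against 573 ± 12.2 CPM), and MTHFD2 and SHMT2 of mitochondrial one-carbon metabolism were 2.58-fold and 2.52-fold lower. The glycine cleavage genes AMT, GCSH and GLDC were higher, AMT 3.04-fold and GCSH 2.47-fold. Of 31 amino acid transporters 8 were higher and 8 lower (10 and 6 with library size only). SLC7A11, the cystine importer, was at 19.9, 18.3 and 19.6 CPM in the CD90+ libraries and 110.2, 112 and 106 CPM in the CD38+ libraries, 5.68-fold lower. SLC7A5, the leucine importer, was 4.75-fold lower and the glycine importer SLC6A9 5.56-fold lower. SLC1A3, a glutamate carrier, was 4.83-fold higher. The ATF4 transcript itself differed by less than 2-fold, as given above.

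The promoter of ASNS is shown because it holds the composite letters read by C/EBP and ATF proteins, TGATGNAA, in capitals, in the same kind of window. These letters were in 3.67% of all promoter windows and in 1.90% of the windows of tested genes, and among the lower genes with a window they were in ASNS (1 of 4 synthesis genes), SLC7A1 (1 of 6 transporters) and CTSG (1 of 11 proteases), and in none of the 8 eicosanoid and histamine genes or the 12 cytokine receptors.
ASNS (chr7:97872359-97872658, minus strand): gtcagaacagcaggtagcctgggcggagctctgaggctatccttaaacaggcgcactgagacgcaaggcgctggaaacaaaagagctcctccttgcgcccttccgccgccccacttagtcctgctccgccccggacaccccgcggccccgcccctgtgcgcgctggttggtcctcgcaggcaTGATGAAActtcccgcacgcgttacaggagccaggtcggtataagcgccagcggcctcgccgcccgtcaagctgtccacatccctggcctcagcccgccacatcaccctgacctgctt
SLC3A2, the partner chain of SLC7A5 and SLC7A11, was the top transporter per kilobase in both fractions (113 RPKM and 179 RPKM) and differed 1.58-fold, short of 2-fold.

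Few genes of central carbon metabolism reached 2-fold. Of 36 glycolysis genes 4 were higher and 3 lower, of 32 TCA cycle genes 1 higher and 2 lower (2 and 1 with library size only), and of the 13 mitochondrially encoded genes none passed 2-fold in either direction (1 higher with library size only). GAPDH, the top glycolytic gene per kilobase, was at 4041, 4039 and 4034 CPM in the CD90+ libraries and 6071, 6086 and 5934 CPM in the CD38+ libraries, 1.49-fold lower, a call short of 2-fold. The phosphofructokinase isoforms stood in different proportions, with count ratios of PFKM to PFKP of 0.704, 0.739 and 0.696 in CD90+ and 0.361, 0.397 and 0.388 in CD38+ libraries. Those of LDHB to LDHA were 1.22, 1.20 and 1.19 and 0.791, 0.759 and 0.794. Both ratios were higher in every CD90+ library. HK3, the hexokinase of myeloid cells, was 3.90-fold lower and FBP1, of gluconeogenesis, 7.47-fold lower. GOT1 and the pyruvate carrier MPC1 were 3.67-fold and 2.25-fold lower. MT-CO2, the top mitochondrially encoded gene, was not called (adjusted p = 0.210), but it was with library size only (log2 difference 0.45), upper-quartile factors (0.30), RLE factors (0.084), the stricter filter (0.12), DESeq2 (0.084) and the fit on these groups alone (0.095).

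PGD and H6PD, whose enzymes supply NADPH, were lower in CD90+ cells. PGD, of the oxidative branch of the pentose phosphate pathway, was at 223, 218 and 218 CPM in the CD90+ libraries and 1198, 1200.5 and 1229 CPM in the CD38+ libraries, 5.51-fold lower (log2 difference -2.46 ± 0.0233 SE, adjusted p = 2.34e-21), and H6PD was 4.42-fold lower. The secreted glutathione peroxidase GPX3 was 10.5-fold lower (66.1 ± 2.88 against 696 ± 18.3 CPM), and SRXN1, GSR, NQO1 and GCLM, known targets of NRF2, were 5.54-fold, 3.56-fold, 3.19-fold and 2.86-fold lower. In all, 6 of 55 redox genes were higher and 10 lower (11 and 9 with library size only). GPX8 and GSTA4 were 17.96-fold and 11.1-fold higher. Among carriers for sugars, lactate, nucleosides and ions 12 of 52 were higher and 15 lower (18 and 11 with library size only). SLC2A3, the high-affinity glucose carrier, led both fractions per kilobase and was at 458, 474 and 472 CPM in the CD90+ libraries and 1425, 1444 and 1421 CPM in the CD38+ libraries, 3.05-fold lower, though its near copy SLC2A14 may share reads. SLC28A3, a nucleoside importer, was 11.4-fold lower.

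Of 51 cholesterol and fatty acid synthesis genes 9 were higher and 7 lower (17.6% and 13.7%, against 22.6% and 13.6% of all tested genes). Of 53 fatty acid oxidation and storage genes 14 were higher and 13 lower (26.4% and 24.5%). All 5 long-chain acyl-CoA synthetases ACSL1, ACSL3, ACSL4, ACSL5 and ACSL6 were lower, ACSL1 from 485 ± 2.68 to 42.8 ± 1.77 CPM, 11.3-fold. PLIN2, which coats lipid droplets, was at 509, 498 and 499 CPM in the CD90+ libraries and 1665, 1693 and 1686 CPM in the CD38+ libraries, 3.35-fold lower, and CPT1A, the gate of mitochondrial oxidation, was 3.52-fold lower. Genes of fatty acid uptake and release from lipoproteins were higher, with CD36 at 161, 155 and 158 CPM in the CD90+ libraries and 9.36, 9.76 and 7.84 CPM in the CD38+ libraries, 17.6-fold (log2 difference 4.14 ± 0.0616 SE, adjusted p = 5.67e-19), FABP3 14.8-fold and lipoprotein lipase (LPL) 9.86-fold. CD36 is also carried by platelets, erythroid cells and macrophages, whose markers moved as given above.

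Retinoid, steroid and xenobiotic genes had 23 of 58 higher and 11 lower. Their summed level went the other way, at 1468 to 1481.5 CPM in CD90+ and 2665 to 2678 CPM in CD38+ libraries. The retinoic acid binding proteins CRABP1 and CRABP2 were 155-fold and 83.01-fold higher, CRABP2 at 76.3, 78.4 and 77.7 CPM in the CD90+ libraries and 0.957, 0.749 and 1.08 CPM in the CD38+ libraries. The retinaldehyde oxidases ALDH1A1, ALDH1A2 and ALDH1A3 were 11.9-fold, 2.44-fold and 9.54-fold higher. CYP1B1, a target of the aryl hydrocarbon receptor, was at 34.4, 36.8 and 34.1 CPM in the CD90+ libraries and 872, 875 and 881 CPM in the CD38+ libraries, 24.9-fold lower (log2 difference -4.64 ± 0.0320 SE, adjusted p = 5.25e-23). CYP1A1 and AHRR, targets of the same receptor, were 7.23-fold and 2.45-fold lower. CYP11A1, which opens steroid synthesis, was 8.88-fold lower and CYP27A1 2.98-fold lower.

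Haem and iron genes had 6 of 43 higher and 4 lower, and the isoforms of the first enzyme differed in opposite directions. ALAS2, the erythroid 5-aminolevulinate synthase, was at 44.5, 41.98 and 43.7 CPM in the CD90+ libraries and 6.57, 7.91 and 6.43 CPM in the CD38+ libraries, 6.23-fold higher (log2 difference 2.64 ± 0.0771 SE, adjusted p = 4.12e-15). ALAS1, the general isoform, was at 116, 119 and 119 CPM in the CD90+ libraries and 464, 469 and 489.7 CPM in the CD38+ libraries, 4.01-fold lower. Their count ratio was 0.384, 0.351 and 0.366 in CD90+ and 0.0141, 0.0169 and 0.0131 in CD38+ libraries, so ALAS1 remained the larger in both. Ferritin transcripts were the most abundant of the list, with FTL at 9684 RPKM in CD90+ and 16705 RPKM in CD38+ cells, and FTH1 was 2.37-fold lower. SLC11A1, an iron pump of phagosomes, was 5.34-fold lower. Ferritin reads may be shared with processed copies of these genes. ALAS2 is one of the erythroid markers, which summed to 806 to 829 CPM in CD90+ and 243 to 249.5 CPM in CD38+ libraries.

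Of 62 nucleotide and polyamine genes 11 were higher and 4 lower (17.7% and 6.45%), both under the shares over all tested genes. Thymidine kinase (TK1) was at 74.01, 75.3 and 76.1 CPM in the CD90+ libraries and 322, 332 and 339 CPM in the CD38+ libraries, 4.41-fold lower, and uridine phosphorylase (UPP1) and the ectonucleotidase ENTPD1 (CD39) were 3.61-fold and 3.29-fold lower. Adenosine deaminase (ADA) was 2.96-fold higher and arginase (ARG1) 9.48-fold higher (7.36 ± 0.297 against 0.772 ± 0.159 CPM). Glycan enzymes had 16 of 74 higher and 18 lower (24 and 15 with library size only). Serglycin (SRGN), the proteoglycan core of secretory granules, was at 603, 608 and 606 CPM in the CD90+ libraries and 3424, 3374 and 3142 CPM in the CD38+ libraries, 5.47-fold lower and the top gene of the list per kilobase in both fractions. ST3GAL4, a sialyltransferase that builds selectin ligands, was 38.5-fold lower (9.85 ± 0.455 against 379.9 ± 5.06 CPM), and FUT7, which completes them, was 3.77-fold lower, beside the lower SELPLG. CHST15, which sulfates chondroitin, was 6.71-fold lower. The sulfatases of heparan sulfate went opposite ways, SULF1 11.6-fold higher and SULF2 4.49-fold lower, and hyaluronan synthase HAS2 was 68.7-fold higher.

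**Figure D5:**
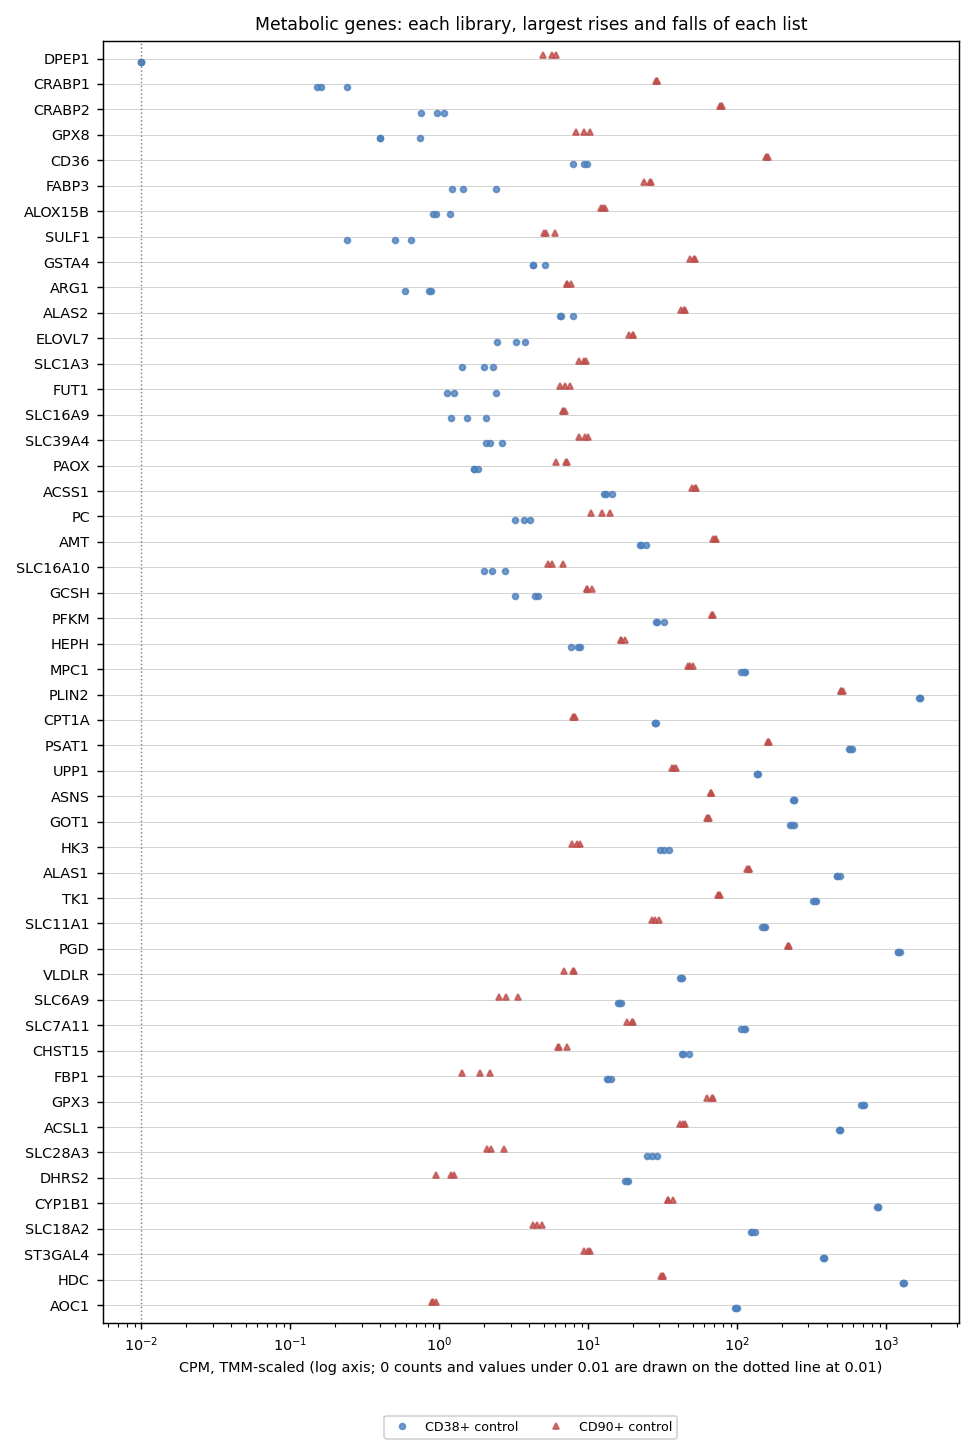
Level in each library of the metabolic genes with the largest rises and falls in each list (up to 2 a direction, of the genes reported), in CPM on a log axis, CD38+ control libraries as blue circles and CD90+ control libraries as red triangles; libraries at 0 or under 0.01 CPM sit on the dotted line. DPEP1 and CRABP1 stand at the top (higher in CD90+) and AOC1 and HDC at the bottom (lower).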

How the data were processed

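The authors' deposited table holds read counts per gene for 9 strand-specific, paired-end libraries, made with HISAT2, featureCounts and hg38, per the submitters' processing notes. Neither versions nor the use of strand in counting is stated in those notes, so reads of antisense or overlapping partners may be shared. The counts were tested as deposited with edgeR 4.0.16 (R 4.3.3): TMM factors, filterByExpr (minimum count 10, minimum total 15), a group-means quasi-likelihood fit over all 9 libraries with no block, and Benjamini-Hochberg adjustment over all tested genes. CPM were computed with TMM-scaled library sizes. RPKM, used only to compare genes, took exon-union lengths of the GENCODE 29 annotation, which also gave identifiers and positions on GRCh38. The scripts were first tested on simulated data. Intervals and bounds cover counting error only, since reads lacking molecular identifiers can be copies of 1 molecule.

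The members and lists were chosen with earlier results of these data known. Named genes were the sort markers, the 6 largest rises and falls over all genes, and in each list the up to 3 largest rises and falls (called, at least 2-fold, no overlap, at least 5 CPM in the higher group) and the highest level per kilobase in each group, besides those said to be chosen after their values were seen. The rule selects more genes than the text describes, and some are not reported here. Alternatives were RLE, upper-quartile or library-size scaling, other filters, DESeq2 1.42.0, limma 3.58.1 with voom, the 6 libraries alone, a replicate block, a 4-fold limit and leaving out each library. Every pair of replicates differed by more than counting noise (chi-square over genes), so none was taken as a repeat deposit of one library, which does not show that they came from separate cultures.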

Additional observations from a re-analysis of the deposited data

How the results depend on the processing

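With library size only in place of TMM factors, 13371 genes were called, of which 71.2% were higher in CD90+ cells against 51.2% with TMM, and 1296 genes in place of 2208 were at least 2-fold lower. With upper-quartile factors 64.3% of calls were higher. A 4-fold limit left 2276 genes higher and 713 lower. No other alternative moved a count of genes by over 1.5 times, and leaving out 1 library gave 12713 to 12925 calls, with 3696 to 3835 genes at least 2-fold higher and 2195 to 2234 lower. Of the list counts under other scalings or the block, 312 stayed within 1.5 times and 32 did not, all of these under library size only or upper-quartile factors. Changes of sign were listed only for called genes among the 285 chosen by the naming rule. Of these, the log2 differences that turned positive with library size only were those of CD164 (0.18), ID2 (0.18), KLF6 (0.050), ATF4 (0.10), NR4A1 (0.33), TNFSF9 (0.0027), TGFB1 (0.19), MMP9 (0.16), ELOVL1 (0.036) and SAT1 (0.34). With upper-quartile factors they were those of CD164 (0.037), ID2 (0.037), NR4A1 (0.18), TGFB1 (0.044), MMP9 (0.0090) and SAT1 (0.19), and with the filter of at least 1 CPM in 3 libraries that of SAT1 (0.0079). The cause was not tested. NR4A1 was not called without CD38+ replicate 3 (adjusted p = 0.108), CD90+ replicate 1 (0.0589) or CD90+ replicate 3 (0.0537). DESeq2 gave no adjusted p for CCL5, so that value is left out.

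Same-numbered libraries of the groups did not deviate together (r = -0.061, 0.0032 and -0.012 over 10564 genes), so the numbers were not taken as pairs. With the replicate block 12889 genes were called, 3630 at least 2-fold higher and 2186 lower. None of the 285 genes chosen by the naming rule changed its call, or its direction where called.

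The number of libraries per group, 3, limits the precision, and the shared dispersion gave a biological coefficient of variation of 6.72%. Levels of 3 counts over a group (0.026 CPM in CD38+, 0.019 CPM in CD90+ cells) could not be told from 0.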

Other observations

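HOX cluster genes were on no list and are given here with their values, chosen after those were seen. HOXA9, which is used by definitive blood progenitors, was at 3.34, 2.58 and 2.62 CPM in the CD90+ libraries and 2.21, 3.13 and 2.05 CPM in the CD38+ libraries, and was not called (adjusted p = 0.254). HOXB4 was at 2.73, 2.32 and 2.72 CPM in the CD90+ libraries and 5.77, 5.27 and 6.28 CPM in the CD38+ libraries, 2.23-fold lower. HOXA5 was 3.85-fold lower, and HOXA7 was higher from under 0.1 CPM in each CD38+ library. CD3D, a chain of the T cell receptor complex, was at 5.40, 5.28 and 5.42 CPM in the CD90+ libraries and 98.1, 103 and 93.2 CPM in the CD38+ libraries, 18.3-fold lower. PRF1 (perforin) was 201-fold lower, while GZMB (granzyme B), its usual companion in killer cells, stood at 1.39 to 2.03 CPM against 2.43 to 2.61 CPM. Genes with 0 counts in every CD38+ library and the largest rises over all genes included BOC, a Hedgehog co-receptor (at least 318-fold), DPYSL5 of neurons (at least 244-fold) and AHSP, which stabilises alpha globin (at least 234-fold).

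Of 9663 genes with at least 5 CPM in both groups, 34 had a highest library at least 3-fold above the lowest within a group, and 10 had this in both groups (AATF, HMOX2, IFI27L1, IL3RA, PUF60, RNH1, SPC25, TSTA3, UBR7 and WDR46). RNH1, which inhibits ribonucleases, was at 32.1, 11.6 and 10.6 CPM in the CD90+ libraries and 15.8, 28.1 and 77.8 CPM in the CD38+ libraries. AATF was at 2.42, 2.96 and 16.9 CPM in the CD90+ libraries and 14.9, 4.06 and 3.71 CPM in the CD38+ libraries, highest in the same libraries as CCL5, and both genes lie on chromosome 17.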
